A study of Sus scrofa with 2 samples.

Results

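The extracellular matrix of the endometrium of pregnant Yorkshire pigs was described through 54 genes for collagens, laminins, proteoglycans, glycoproteins and the enzymes that fold and crosslink collagen. The genes are named by their role in the matrix, and the list was drawn up with earlier results of these data known. The tissue came from 2 pregnant Yorkshire animals slaughtered at day 18 (YK18), each sequenced as 1 library and named replicates 1 and 2, and both carried no genetic change or treatment that the labels name. The uterine horns had been flushed with saline before the tissue was taken. Only 1 condition was analysed here, so levels and the difference between the 2 pigs are given and no condition is compared. With 1 library per pig, the spread between pigs, the handling of the tissue and the library cannot be told apart. Of the 54 genes, 31 had at least 1 row (45 rows in all) among the 11063 genes with a matched symbol. The other 23 genes had no matched row, and 22150 of the 38222 mRNA rows carry accessions without a matched symbol.

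Fibrillar collagens such as types I, III and V form the cables that give a tissue its tensile strength, and type V chains join the type I and III fibrils and limit their width. Basement membranes are sheets of laminin and type IV collagen, bridged by nidogen and perlecan, on which epithelium and vessels rest. Small proteoglycans such as decorin and lumican bind collagen fibrils and space them. In the pig the conceptus attaches to the uterine epithelium without invading it, and the stroma under the epithelium is not breached.

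The values are RPKM, reads scaled to a length for each row and to the total of the library, and paired values are given with replicate 1 first. Which length the authors divided by is not stated in the sources used here. They rise in steps of 1 read, and from these steps 7466979 reads were behind the values of replicate 1 and 7023108 behind those of replicate 2. The reads of each gene were recovered in the same way, at the smallest length that gave whole reads in both libraries. Reads and length may therefore both be too small by a common factor. Intervals from these reads (95%, exact) hold the error of counting reads alone and say nothing of the spread between pigs. PCR copies are not separate molecules, so the intervals may be too narrow for molecules. Counting error below is that of reads. A gene at 0 is described only as listed at 0. Among all genes with a symbol, 21.1% of the 8226 genes with 1 row and 42.7% of the 2837 genes with more than 1 row were listed at 0 in both libraries. No genome position is given for the genes, because the genome build is not stated in the sources used here.

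Among the 31 matrix genes with a matched row, type III collagen had by far the most abundant message. The 23 genes without a row, COL1A1 among them, could not be compared. COL3A1, which encodes the only chain of type III collagen, was at 67098 and 42857 RPKM (54978 ± 17141, SD, n = 2). Its mean was the highest of all genes with a symbol. All matrix genes together held 1.09% of the reads of replicate 1 and 0.723% of those of replicate 2. COL3A1 held 72.7% of the summed RPKM of the matrix genes in replicate 1 and 69.7% in replicate 2. In reads it was less dominant, with 57.4% and 55.1% of the reads of the matrix genes. Of all reads of the library, 0.624% (interval 0.618 to 0.630%) came from COL3A1 in replicate 1 and 0.399% (0.394 to 0.403%) in replicate 2.

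Of the 54 genes, 22 had a mean of at least 1 RPKM, 14 at least 100 RPKM and 8 at least 1000 RPKM. After COL3A1, the order by mean RPKM was COL5A2, FBN1, LAMC1, COL5A1, LUM, THBS1 and SERPINH1. The ranges of COL5A2 and FBN1 over the 2 pigs overlapped, and FBN1 was above COL5A2 in replicate 2. From LAMC1 down to SPARC each gene overlapped with the next, so neighbours in this order were not separated by the spread between pigs. Some genes further apart did not overlap. The lower value of LAMC1, 1847 RPKM, was above the higher values of THBS1, 1517 RPKM, and SPARC, 1006 RPKM. THBS1 had rank 9 of the matrix genes in replicate 1 and rank 5 in replicate 2.

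**Figure D1:**
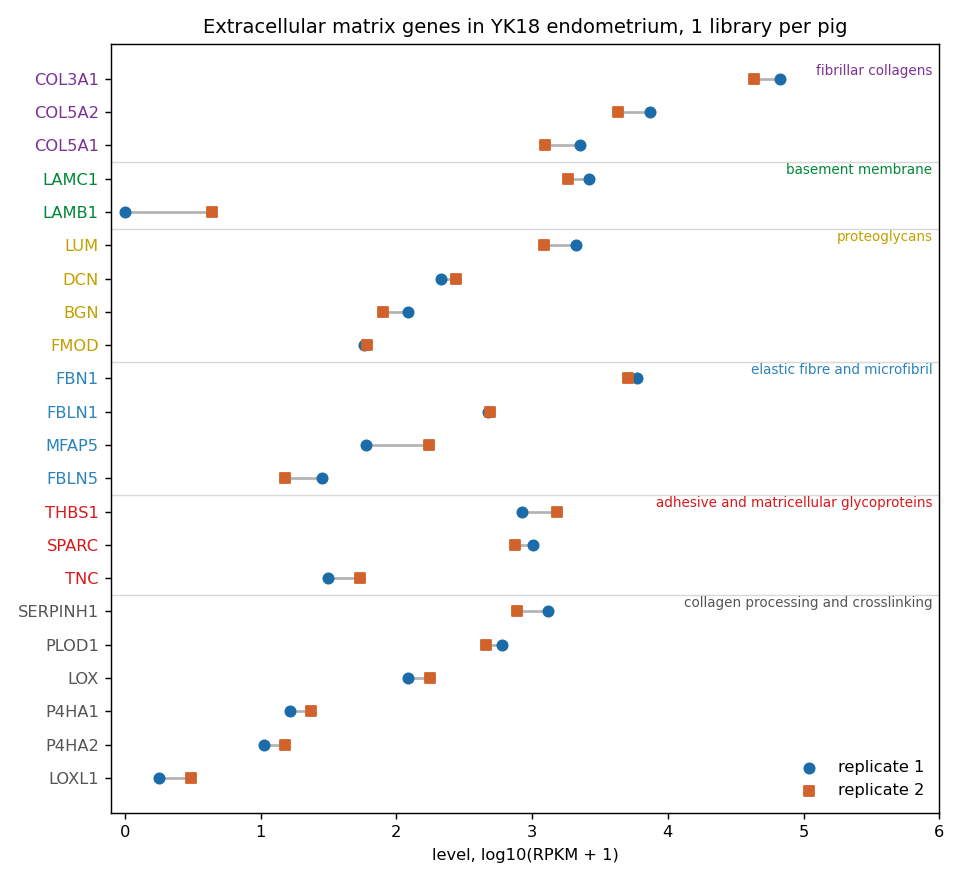
RPKM of the 22 matrix genes with a mean of at least 1 RPKM, on the log10(RPKM + 1) scale, grouped by role, with a circle for replicate 1 and a square for replicate 2 joined by a line. COL3A1 stands apart at 67098 and 42857 RPKM, the 3 fibrillar collagen genes are lower in replicate 2, and LAMB1 is listed at 0 in replicate 1.

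The order by reads differed from that by RPKM. LUM had the largest number of reads after COL3A1, with 10234 in replicate 1 and 5553 in replicate 2, but rank 6 by RPKM because its recovered length was 646 nt. COL5A2, next after COL3A1 by RPKM, had 5193 and 2852 reads at 94 nt and had rank 5 by reads. The recovered length of the 19 matrix genes with a single row above 0 ran from 32 to 646 nt with a median of 164 nt, which is far shorter than a collagen message. COL3A1 was at 93 nt and COL5A1 at 89 nt. Whether these lengths are those of the transcripts was not tested, so levels of different genes are less firm than the ratio of 1 gene between the libraries, in which the length cancels. The 10 highest genes were the same by RPKM and by reads, and COL3A1 was first by both.

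**Figure D2:**
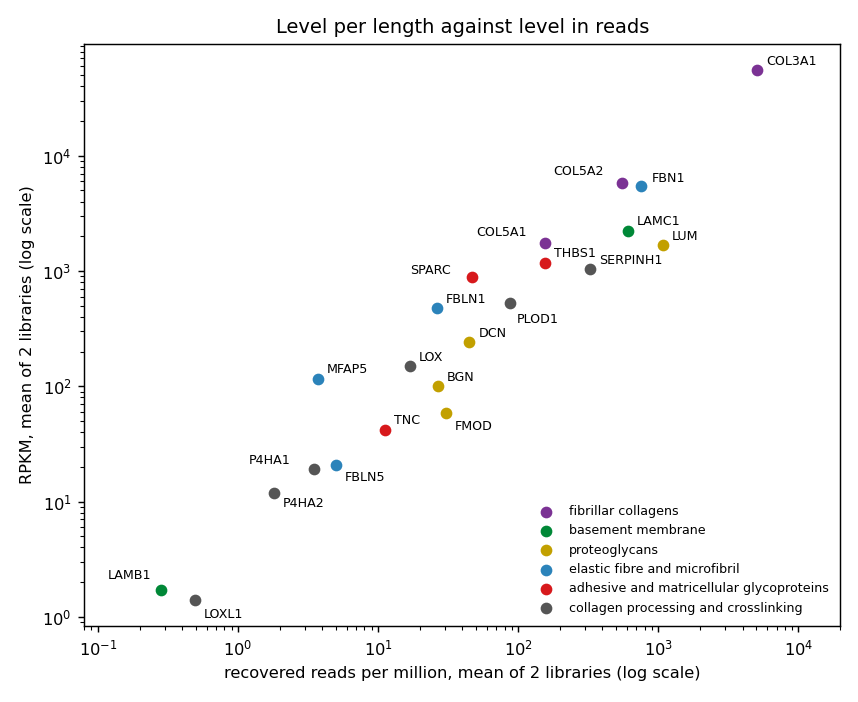
Mean RPKM against mean recovered reads per 1000000 library reads for the 22 matrix genes, both on log axes and each point a gene. Genes far to the upper left, such as MFAP5 with a recovered length of 32 nt, rank higher by RPKM than by reads, and LUM at 646 nt ranks lower.

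The 3 fibrillar collagen genes with a mean of at least 1 RPKM were lower in replicate 2. Outside the 54 genes, COL5A3 was lower as well, while COL11A1 had an interval that held 1. COL5A1, the main regulatory chain of type V collagen, was at 2259 and 1251 RPKM. COL5A2, its partner chain, was at 7399 and 4320.1 RPKM. On the log2(RPKM + 1) scale the ratio of replicate 2 to replicate 1 was -0.65 for COL3A1, -0.85 for COL5A1 and -0.78 for COL5A2, against a median of 0.02 for the 2575 genes with a mean of at least 100 RPKM. As shares of the library reads these are ratios of 0.639 (0.629 to 0.648), 0.554 (0.507 to 0.604) and 0.584 (0.558 to 0.611), so each difference was larger than counting error. The 3 ratios lay between 0.554 and 0.639. In pairs of genes chosen after their values had been seen, the ratio of COL3A1 to COL5A2 was 9.07 in replicate 1 and 9.92 in replicate 2, and that of COL5A2 to COL5A1 was 3.28 and 3.45. The ratio to COL5A2 changed by a factor of 1.09 (1.04 to 1.15) and that to COL5A1 by 1.05 (0.955 to 1.16), an interval that holds 1. In bulk tissue, fewer matrix-making cells and less RNA per cell cannot be told apart.

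Type I collagen could not be described beside type III. COL1A2 was at 1.37 RPKM in replicate 1, from 1 read, and was listed at 0 in replicate 2, and COL1A1 had no matched row. Both counts of COL1A2 are at or under 3 reads, the limit that a count of 0 allows, so no ratio is given. Of the other collagens, which include the beaded type VI and the fibril-associated types XII, XIV and XVI, none was above 0. COL8A1 and COL14A1 were listed at 0 in both libraries, and COL6A1, COL6A2, COL6A3, COL12A1 and COL16A1 had no matched row.

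Of the 13 basement membrane genes, 2 had a row. LAMC1, the gamma chain found in most laminins, was at 2625 and 1847 RPKM, with 5311 and 3516 reads. Its ratio in library-scaled reads was 0.704 (0.674 to 0.735), an interval above those of the 3 fibrillar collagens. LAMB1, a beta chain that pairs with it, was listed at 0 in replicate 1 and was at 3.41 RPKM in replicate 2, from 4 reads. The interval of its ratio started at 0.702 and so held 1, and no fold is given. The type IV chains COL4A1 and COL4A2, the endostatin-bearing COL15A1 and COL18A1, the laminin chains LAMA2, LAMA4, LAMA5 and LAMB2, the nidogens NID1 and NID2 and perlecan, HSPG2, had no matched row.

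The small proteoglycans did not move together. LUM (lumican) was at 2122 and 1224 RPKM, and BGN (biglycan) was at 120.4 and 78.9 RPKM. DCN (decorin) was higher in replicate 2, at 211 and 273 RPKM, and FMOD (fibromodulin) was at 56.6 and 59.9 RPKM. In library-scaled reads the ratio was 0.577 (0.558 to 0.596) for LUM, 0.656 (0.531 to 0.808) for BGN, 1.29 (1.10 to 1.51) for DCN and 1.06 (0.874 to 1.28) for FMOD. LUM and BGN were lower and DCN was higher by more than counting error, while the interval of FMOD held 1. Within each library the RPKM of LUM was 10.1 times that of DCN in replicate 1 and 4.49 times in replicate 2, so the ratio was larger in replicate 1 by a factor of 2.24 (1.91 to 2.63). The RPKM of LUM was 17.6 times that of BGN in replicate 1 and 15.5 times in replicate 2, a change in the same sense by 1.14 (0.917 to 1.40), an interval that holds 1. VCAN (versican), a large proteoglycan, was listed at 0 in all 3 of its rows, PRELP had 1 read in replicate 1 and 0 in replicate 2, and OGN had no matched row.

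By level, the 3 groups were ordered alike in both pigs. Over the genes above 0 in either library, the median of the 4 fibrillar collagen genes was 4829 and 2786 RPKM. The median of the 2 basement membrane genes was 1312 and 925 RPKM, and that of the 5 proteoglycan genes 120.4 and 78.9 RPKM. The basement membrane median lies midway between LAMC1, at 2625 and 1847 RPKM, and LAMB1, at 0 and 3.41 RPKM, and is the level of neither. With 5 genes or fewer in each group, and members without a row, these medians describe the genes listed and not the groups. By difference, the median log2 ratio was -0.78 over 3 fibrillar collagen genes and -0.26 over 4 proteoglycan genes. For the basement membrane the median of 0.82 lies between LAMC1 at -0.51 and LAMB1 at 2.14 and rests on the 4 reads of LAMB1. The median over the 6474 genes with a mean of at least 1 RPKM was 0.07.

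**Figure D3:**
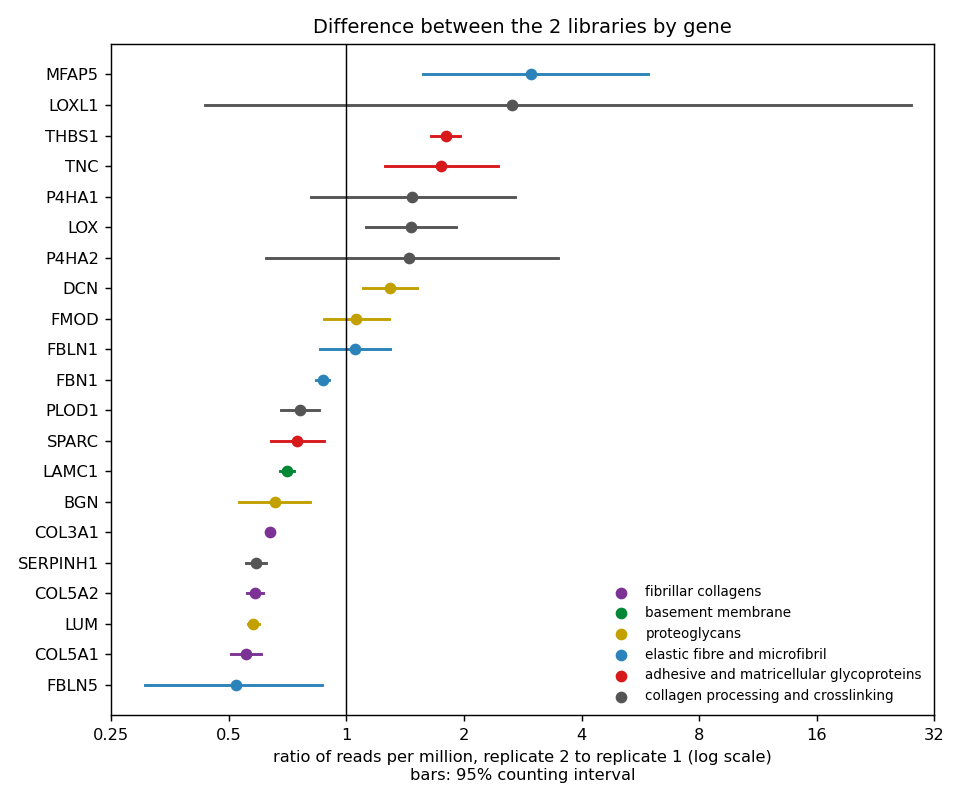
Ratio of library-scaled reads in replicate 2 to replicate 1 for 21 matrix genes, on a log axis, with bars for the 95% counting interval and colours for the role. The fibrillar collagens, LUM and SERPINH1 lie between 0.554 and 0.639, and MFAP5, THBS1, TNC, LOX and DCN lie above 1 with their whole interval. LAMB1, with 0 reads in replicate 1, is left out.

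Among genes of elastic fibres and microfibrils, FBN1 was the most abundant. FBN1 (fibrillin 1), the backbone of microfibrils, was at 5893 and 5118 RPKM, and its ratio of 0.868 (0.836 to 0.902) was nearer to 1 than that of the collagens. FBLN1, which binds fibronectin and elastic fibres, was at 470.5 and 485 RPKM with an interval that held 1 (0.856 to 1.29). FBLN5, needed for the assembly of elastic fibres, was at 27.4 and 14.2 RPKM, from 49 and 24 reads. MFAP5, a microfibril-associated glycoprotein, was at 58.6 and 174 RPKM, from 14 and 39 reads, and its ratio of 2.96 (1.57 to 5.91) was the largest of the genes above 0 in both libraries. ELN and FBLN2 had no matched row.

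THBS1 and TNC, which modulate cell adhesion, were higher in replicate 2. THBS1 (thrombospondin 1), an adhesive glycoprotein that platelets also release, was at 845 and 1517 RPKM, with 833 and 1406 reads. TNC (tenascin C), which loosens cell attachment, was at 30.5 and 53.1 RPKM. SPARC, a collagen-binding glycoprotein, was at 1006 and 752 RPKM and so was lower in replicate 2. The ratio was 1.79 (1.65 to 1.96) for THBS1, 1.74 (1.26 to 2.44) for TNC and 0.748 (0.640 to 0.874) for SPARC. Within the libraries, COL3A1 was 79.4 times THBS1 in RPKM in replicate 1 and 28.3 times in replicate 2. FN1 (fibronectin) and SPARCL1 were listed at 0 in both libraries, POSTN (periostin) was so in all 4 of its rows, and THBS2 had no matched row. FN1 has 1 matched row and is used by nearly every stroma, so its 0 is not read as absence.

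The enzymes and chaperones of collagen were split by direction. SERPINH1 (HSP47), the chaperone that holds newly made collagen, was at 1309 and 767 RPKM. PLOD1, a lysyl hydroxylase that prepares collagen for crosslinks, was at 602 and 458 RPKM. LOX, the lysyl oxidase that makes the crosslinks outside the cell, was at 120.9 and 176 RPKM. The ratio of SERPINH1, 0.586 (0.552 to 0.622), lay within the range of those of the 3 collagens, and the ratio of COL3A1 to SERPINH1 changed between the libraries by a factor of 1.09 (1.03 to 1.16). The ratio was 0.760 (0.679 to 0.851) for PLOD1 and 1.46 (1.12 to 1.90) for LOX. P4HA1 and P4HA2, the catalytic subunits of prolyl hydroxylase, were at 15.4 and 22.6 RPKM and at 9.62 and 14.1 RPKM, with intervals that held 1. LOXL1 had 2 and 5 reads, PCOLCE was listed at 0, and LOXL2 and PLOD2 had no matched row.

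Over all 22 matrix genes with a mean of at least 1 RPKM, 11 were lower and 11 higher in replicate 2, against 42.0% of all 6474 genes lower. Their median log2 ratio was -0.08. At least a 2-fold difference on the log2(RPKM + 1) scale was reached by 2 of the 22, MFAP5 and LAMB1, which is 9.09% against 10.6% of all 6474 genes, a share near the background. LAMB1 passed the filter of 1 RPKM only through replicate 2, where it is high, so nothing is read from its difference, and MFAP5 alone is left without it. At 1.5-fold, 7 of the 22 (31.8%) were lower in replicate 2, against 7.92% of all genes. These were COL3A1, COL5A1, COL5A2, LUM, BGN, FBLN5 and SERPINH1. A 1.5-fold higher value was reached by 5 (22.7%), against 15.6%, namely LAMB1, MFAP5, TNC, THBS1 and LOXL1. LOXL1, with 2 and 5 reads, also passed the filter only through replicate 2, so the share of higher genes is not read as above the background, and MFAP5, TNC and THBS1 are the 3 left without these genes. The SD of the log2 ratio was 0.67 over all 6474 genes and 0.42 over the 2575 genes of at least 100 RPKM, so the same was counted over the 14 matrix genes of that level. Of these 14, 9 were lower in replicate 2, with a median of -0.41, against 46.6% lower and a median of 0.02 among all genes of that level. Of the 14, 1 differed at least 2-fold, MFAP5, against 2.8% of all such genes. A 1.5-fold lower value was found for 5 of the 14 (35.7%), namely COL3A1, COL5A1, COL5A2, LUM and SERPINH1, against 2.6%. A 1.5-fold higher value was found for THBS1 and MFAP5 (14.3%), against 4.97%. MFAP5, at 58.6 and 174 RPKM, passed the filter of 100 RPKM only through replicate 2. Neither the 2-fold share nor the share of higher genes at this level is therefore read as above the background. Without MFAP5, THBS1 alone is left. The counting interval lay below 1 for 11 of the 22 genes, against 12.4% of all genes, and above 1 for 5, against 18.6%, but it is narrower for genes with many reads and the collagens are among these. The genes were not drawn at random and share cells and libraries, so these shares describe the list.

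**Figure D4:**
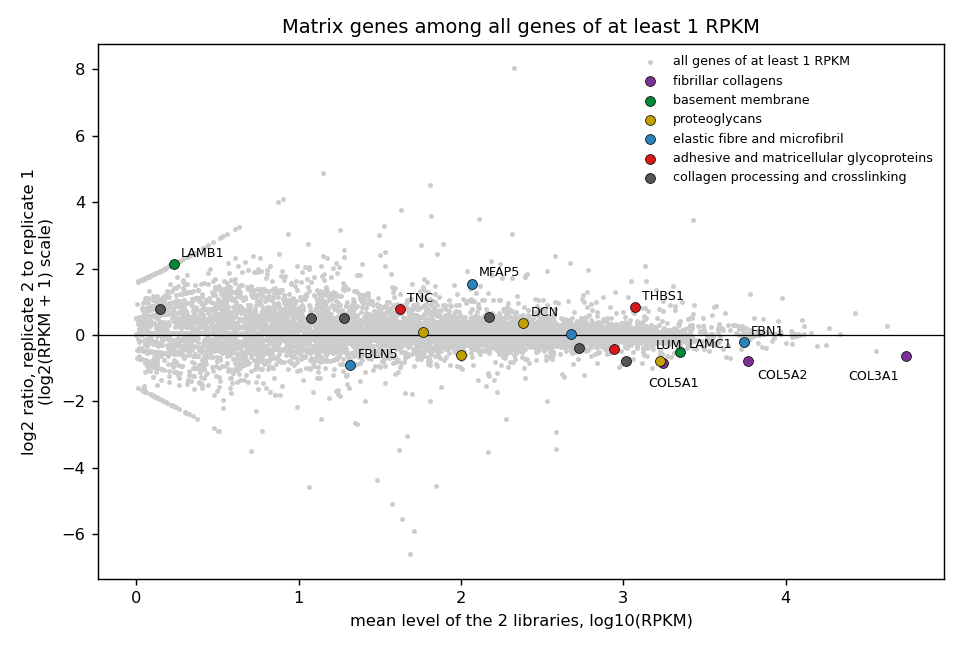
Log2 ratio of replicate 2 to replicate 1 against the mean level for the 6474 genes with a mean of at least 1 RPKM (grey), with the matrix genes in the colour of their role. At the highest levels COL3A1, COL5A2, COL5A1, LUM and SERPINH1 lie between -0.85 and -0.65, against a median of 0.02 for all genes of at least 100 RPKM, and THBS1 lies at 0.84.

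Another 125 matrix genes were listed, of which 57 had a row and 40 a mean of at least 1 RPKM. Of the 40, 18 were lower and 22 higher in replicate 2. Their median log2 ratio was 0.02. By role, 6 of 8 further proteoglycans were lower and 7 of 10 further glycoproteins higher, with medians of -0.46 and 0.37. Among all genes 42.0% were lower, so the glycoproteins are near the background. The summed level of the further proteoglycans was 1528 and 1714 RPKM, and the most abundant, the cell surface proteoglycan SDC4, was higher in replicate 2 at 1132 and 1503 RPKM. COL5A3, the remaining chain of type V collagen, was at 1436 and 870.0 RPKM, at a log2 ratio of -0.72 near that of COL5A1 and COL5A2. ADAMTS2, which trims the amino end of procollagen, was at 290.0 and 184 RPKM. CTSK, a collagen-cleaving cathepsin, was at 231 and 141 RPKM. The log2 ratio was -0.65 for ADAMTS2 and -0.70 for CTSK, while FKBP10 and TMEM38B, of the same list, had log2 ratios of 0.02 and 0.13. TGM2, a transglutaminase that crosslinks matrix proteins, was the most abundant at 1394 and 1661 RPKM, and PCOLCE2, an enhancer of procollagen trimming, was at 122 and 159.7 RPKM. Of the 8 further collagen enzymes of at least 1 RPKM, 5 were higher in replicate 2, with a median of 0.07. This split is near the background as well.

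Of the 6 further collagens of at least 1 RPKM, 2 were lower and 4 higher in replicate 2. Their median log2 ratio was 0.09. Among all genes 42.0% were lower, so this split is near the background. Of the 6, only COL5A3 had an interval that did not hold 1. COL9A1 had 2 and 1 reads, COL19A1 had 3 and 5, and COL9A2 had 8 and 13. COL7A1, the anchoring fibril collagen under epithelium, was at 1107 and 1117 RPKM. COL11A1, a minor fibrillar chain, was at 118 and 132 RPKM. Of the basement membrane genes, LAMA3, an epithelial laminin chain, was higher in replicate 2, at 948 and 1653 RPKM, and LAMC3 was at 935 and 829.7 RPKM. Among glycoproteins IGFBP7 was the most abundant, at 3944 and 4876 RPKM, and CTGF and TNXB were both at a log2 ratio of -0.52. At least 2-fold differences were found for KERA (keratocan), at 83.2 and 9.14 RPKM, and for WISP1, at 30.4 and 66.1 RPKM, from 22 and 45 reads. Of the 40 further matrix genes of at least 1 RPKM these were the only ones. Against this, 10.6% of all 6474 genes differed at least 2-fold, so the count is not above the background.

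Markers of the cells in the tissue moved in several directions, and their part in the differences was not tested. The epithelial markers EPCAM, at 5106 and 5128 RPKM, and CDH1, at 4834 and 3961 RPKM, were high in both libraries, while KRT8 was listed at 0. Of the 8 epithelial markers of at least 1 RPKM, 6 were higher in replicate 2 and the median log2 ratio was 0.54. Among all genes 42.0% were lower. Of the 6, EPCAM, KRT19, ESRP1 and SPINT1 had intervals that held 1. ESRP1 had 4 and 8 reads and SPINT1 had 3 and 10. The intervals of CLDN3 and CLDN4 lay above 1, and those of CDH1 and KRT18 lay below 1. KRT19 was at 0.96 from 6 and 11 reads, CLDN3 at 0.77 and CLDN4 at 0.31, while KRT18, at 1626 and 1064 RPKM, was at -0.61. Of 12 stromal fibroblast markers 5 had a mean of at least 1 RPKM. Of the 5, 4 were higher in replicate 2, while among all genes 42.0% were lower. The intervals of VIM and FAP, 2 of the 4, held 1. HOXA11 was lower, at a ratio of 0.783 (0.695 to 0.882). The stromal list summed to 2359 and 3287 RPKM, led by MME at 1629 and 2093 RPKM and THY1 at 452 and 910.2 RPKM. S100A4 and IGF1 were listed at 0, and PDGFRA, PDGFRB and HAND2 had no matched row. The endothelial markers summed to 6539 and 6209.7 RPKM, the epithelial markers to 12201 and 11242 RPKM and the leukocyte markers to 1051 and 1514 RPKM. The smooth muscle markers summed to 125 and 113 RPKM with ACTA2, CNN1, MYLK and SMTN listed at 0.

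Of the 8 marker lists, those of skeletal muscle and erythrocytes had the largest median differences. All 10 skeletal muscle markers with a mean of at least 1 RPKM were at least 2-fold lower in replicate 2. Among all 6474 genes, 10.6% differed at least 2-fold in either direction. MYH1, CKM and TNNC1 were under 1 RPKM in replicate 2 and passed the filter only through replicate 1, so nothing is read from their difference. TNNC2 had 3 and 1 reads, and its interval held 1. The skeletal muscle list summed to 746 and 46.5 RPKM. In reads these sums are 651 and 22, and TNNT1, TNNT3, MYL2, ACTN3, ENO3 and ATP2A1 were listed at 0. The erythrocyte markers summed to 3556 and 8462 RPKM, of which HBB was 3549 and 8431 RPKM, with ALAS2 listed at 0. The trophectoderm list summed to 806 and 217 RPKM, led by IFNG at 682 and 89.1 RPKM, with ELF5 and GATA3 listed at 0. The difference in this sum lay in IFNG, while GATA2 was at 122 and 125 RPKM. Over the 3 trophectoderm markers of at least 1 RPKM the median log2 ratio was 0.03.

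**Figure D5:**
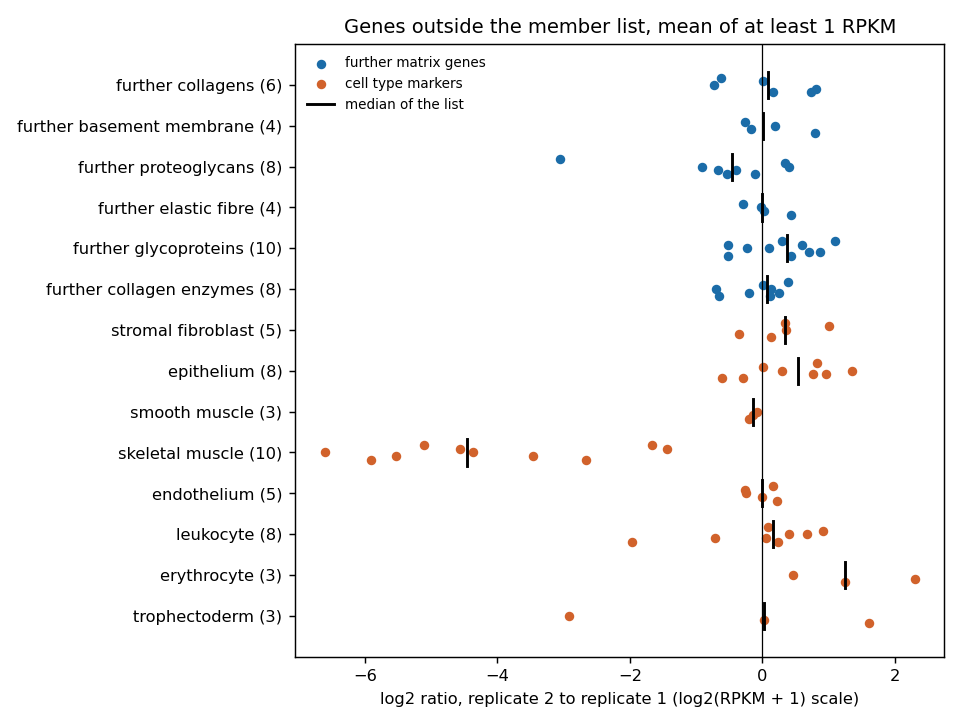
Log2 ratio of replicate 2 to replicate 1 for matrix genes outside the 54 (blue) and for cell type markers (orange) with a mean of at least 1 RPKM, each point a gene and each bar the median of its list, with the number of genes in brackets. The medians of the further matrix lists lie between -0.46 and 0.37, skeletal muscle at -4.47 and erythrocytes at 1.25.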

How the data were processed

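RNA-seq of endometrium from 2 YK18 pigs was analysed, 1 library each, grouped by the labels of breed and day. The authors counted reads with HTSeq 0.6.1 and deposited RPKM values per transcript. The aligner, genome build and annotation are not given in the sources used here. Rows of a gene were summed (pandas 2.3.3 under Python 3.11.15). Symbols came from RefSeq of Sscrofa11.1, with the version number of the accession ignored, and matched 16072 of 38222 mRNA rows. The values are not counts and there is 1 group, so no count model and no test between groups was run. Library totals and reads were recovered from the steps of low values (lengths up to 20000 nt tried), and all 25584 rows above 0 gave whole reads to within 1 unit of the last digit written in the RPKM value. The length was free, so this share depends on that tolerance. Recovered reads summed to 90.2% and 90.3% of the totals. Ratios use a pseudocount of 1 and a mean of at least 1 RPKM. Intervals are exact conditional binomial intervals (scipy 1.17.1) for a gene and exact conditional odds ratio intervals for a pair. The recovery and the intervals were tested on simulated data. The members and lists were chosen with earlier results of these data known. All 54 members were accounted for, and genes of other lists were named at a mean of at least 100 RPKM, or a 2-fold difference at 5 RPKM or more. Outside this rule KRT8 and the other marker genes listed at 0 were picked with their values known. So were HOXA11, VIM, ESRP1, SPINT1, COL9A1, COL9A2, COL19A1 and the pairs of genes. Alternatives changed the pseudocount, the filter, the scaling, the summing of rows, the fold and the pigs used. No sequence of the genes was used here.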

Additional observations from a re-analysis of the deposited data

How the results depend on the processing

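No paired analysis was possible because both pigs belong to the same group. Levels per coding length were not run, because no table of proteins or transcripts was used here. The 2 matrix genes that differed at least 2-fold became 1 with a mean of at least 5 RPKM, when LAMB1 is no longer measured, and 12 at a fold of 1.5. Under the other alternatives there were 2 or 3. The median log2 ratio of the fibrillar collagens, -0.78, was -0.86 after rescaling by the median ratio and kept its sign under every alternative run. That of the basement membrane, 0.82, was -0.51 with a mean of at least 5 RPKM, 2.31 with a pseudocount of 0.1, 0.74 after rescaling by the median ratio and 0.95 in reads, so the 4 reads of LAMB1 decide it. That of the proteoglycans, -0.26, ran from -0.35 to -0.09. Median levels were 890.1, 262 and 23.3 RPKM for fibrillar collagens, basement membrane and proteoglycans when both libraries were scaled to sum to 1000000, which lowers every level. Of 110 single-gene log2 ratios under alternatives, 3 changed sign, all of FMOD or FBLN1 near 0 under rescaling. Another 14 were marked as moved, by more than the mean distance from the ratio to the ends of its counting interval. LAMB1, whose interval has no upper end, was given no tolerance, so its moves among the 14 are not moves beyond its interval. The others were of COL3A1, COL5A2, LAMC1, LUM, FBN1 and SERPINH1 under rescaling. It shifts all log2 ratios by -0.06 or -0.09, so the intervals do not cover the choice of scaling. Of the 10 highest genes, 9 were kept without replicate 1 and 10 without replicate 2. Ordering by reads was chosen after seeing the data and kept 10. Few reads limit MFAP5, FBLN5, P4HA1, P4HA2, LOXL1 and LAMB1.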
